A study of Mus musculus with 8 samples.

Results

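MHC class I presentation shows fragments of a cell's own proteins to CD8 T cells. The proteasome cuts proteins into peptides, and interferons make cells swap its standard catalytic subunits Psmb5, Psmb6 and Psmb7 for Psmb8, Psmb9 and Psmb10, which turns it into the immunoproteasome. The Tap1 and Tap2 proteins form the pump that moves peptides into the endoplasmic reticulum, where tapasin (Tapbp) helps load them onto a heavy chain (H2-K1 or H2-D1) paired with beta-2 microglobulin (B2m). Nlrc5 is the transactivator of class I genes. The 10 genes Tap1, Tap2, Tapbp, Psmb8, Psmb9, Psmb10, B2m, H2-K1, H2-D1 and Nlrc5 were taken by name from a table of 56748 genes, and 10 of the 10 passed the filter on low counts that 11222 genes passed. The set was picked because Tap1 was lower in Olfr2 knockout cells (adjusted p = 0.0341 over all tested genes, edgeR quasi-likelihood test), so that the genotype values of all 10 genes are given as a description.

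The RNA came from Ly6Chigh monocytes (classical monocytes, which enter inflamed tissue) that had been sorted from mouse spleen 7 days after an aneurysm was induced, and was amplified from oligo-dT primed cDNA. There were 4 libraries from Olfr2 knockout (KO) animals and 4 from wild-type (WT) animals, and both genotypes had received the aneurysm induction. The study's question is whether Olfr2, an olfactory receptor gene, promotes monocyte recruitment in abdominal aortic aneurysm. The allele, strain, sex and age of the animals, the method of induction and whether a library is 1 animal were not given in the sources used here, and p-values therefore measure only how these libraries spread, which may be technical.

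Total counts lay between 17258427 and 21728794 in KO libraries and between 16111725 and 19048245 in WT libraries. Olfr2 had 0 counts in all 8 libraries, which allows up to 0.138 to 0.186 CPM (counts scaled to the size of the library) for counting error only, so that it could not check the genotype labels. The defining markers of the labelled cell type were abundant, with Ly6c2 at 4727 to 6378 CPM in KO and 4058 to 4889 CPM in WT, and Ccr2 at 1292 to 2259.6 CPM in KO and 1049 to 1738 CPM in WT. The numbers in the column names fall in a 1600 series (KO 1, KO 2, WT 1 and WT 2) and a 1700 series (KO 3, KO 4, WT 3 and WT 4), whose meaning the labels do not state. KO 1 and KO 2 stood apart in S100a8, a neutrophil calprotectin gene, with 796 and 1584 CPM, against 73.9 and 39.6 CPM in KO 3 and KO 4 and at most 48.6 CPM in WT.

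Of the 10 genes, 7 lie in or near the MHC on chromosome 17 (GRCm38, GENCODE M21). Tapbp spans 33915899 to 33929292 and H2-K1 33996017 to 34000347. Psmb9 (34181987 to 34187764, minus strand) and Tap1 (34187553 to 34197225, plus strand) lie head to head, followed by Psmb8 (34197721 to 34201454) and Tap2 (34203527 to 34216321), with H2-D1 at 35262730 to 35267499. Psmb10 (105935735 to 105938444) and Nlrc5 (94434356 to 94527272) are on chromosome 8, and B2m (122147686 to 122153083) is on chromosome 2. Annotated exons of Tap1 and Psmb9 share 212 bases, where reads cannot be assigned to either gene without strand, and the strand setting of the counting was not given in the sources used here. Larger exon overlaps with genes on the opposite strand were annotated for Tapbp (904 bases, Gm19412), Tap2 (533 bases, Gm15821) and Psmb8 (498 bases, Gm20496). The levels and ratios per exon length below make no allowance for such overlaps. Of all stretches of 100 bases, H2-K1 shared 0% and H2-D1 4.64% with transcripts of other genes, so that most stretches of that length could tell these paralogs apart. For stretches of 50 bases the shares were 8.79% for H2-K1 and 14.3% for H2-D1.

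**Figure D1:**
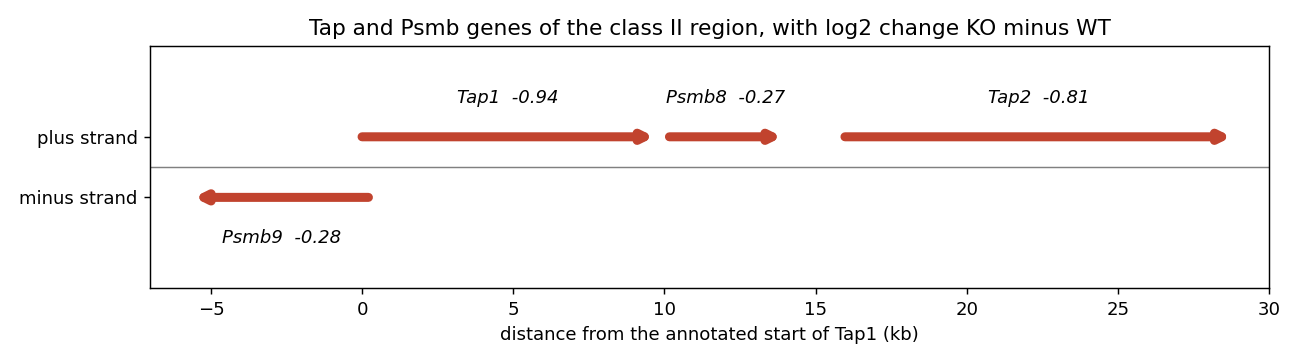
Map of Psmb9, Tap1, Psmb8 and Tap2 by distance from the annotated start of Tap1 (kb), with arrows in the direction of transcription and the log2 change, KO minus WT, beside each name. Psmb9 (-0.28) and Tap1 (-0.94) point away from each other from a shared start region, and Psmb8 (-0.27) lies between Tap1 and Tap2 (-0.81).

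Windows of 300 bases around the RefSeq transcription starts (GRCm38.p6, 250 bases before to 50 after) were available for 8 of the 10 genes, Tap2 and Nlrc5 not among them. The Tap1 start is shown because Tap1 carries the genotype difference and shares its control region with Psmb9, and the H2-K1, H2-D1 and B2m starts because they serve the class I molecule itself. The Tap1 window is chr17:34187306-34187605 on the plus strand, H2-K1 is chr17:34000298-34000597 on the minus strand, H2-D1 is chr17:35262844-35263143 on the plus strand and B2m is chr2:122147437-122147736 on the plus strand. Another RefSeq window of H2-K1, chr17:34000284-34000583, held the same matches at shifted positions and is not shown. Capitals mark matches on either strand to the interferon-stimulated response element (GAAA, any 2 bases and GAAA again), its shorter IRF core AANNGAAA (which lies inside it), the interferon-gamma activated site TTCNNNGAA, the class I NF-kB site (the first capitals in the H2-K1 and H2-D1 lines), the CCAAT box CCAAT, the CRE half-site TGACG and the GC box GGGCGG.
Tap1: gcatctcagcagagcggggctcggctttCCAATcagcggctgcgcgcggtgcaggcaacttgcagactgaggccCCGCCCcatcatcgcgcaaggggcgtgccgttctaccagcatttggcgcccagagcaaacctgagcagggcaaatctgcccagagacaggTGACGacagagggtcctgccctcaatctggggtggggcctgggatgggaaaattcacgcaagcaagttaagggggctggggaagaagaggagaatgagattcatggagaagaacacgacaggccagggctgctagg
H2-K1: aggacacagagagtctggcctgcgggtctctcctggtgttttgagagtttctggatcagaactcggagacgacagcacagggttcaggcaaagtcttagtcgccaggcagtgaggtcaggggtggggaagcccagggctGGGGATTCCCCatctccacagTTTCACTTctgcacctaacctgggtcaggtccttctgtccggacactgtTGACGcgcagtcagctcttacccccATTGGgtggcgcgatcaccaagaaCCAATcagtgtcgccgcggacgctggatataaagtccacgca
H2-D1: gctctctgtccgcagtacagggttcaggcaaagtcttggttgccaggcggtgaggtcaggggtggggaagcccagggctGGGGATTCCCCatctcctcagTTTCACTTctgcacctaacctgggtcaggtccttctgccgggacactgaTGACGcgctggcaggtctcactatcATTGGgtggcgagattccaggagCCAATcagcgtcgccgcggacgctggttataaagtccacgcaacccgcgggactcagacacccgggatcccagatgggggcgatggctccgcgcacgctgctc
B2m: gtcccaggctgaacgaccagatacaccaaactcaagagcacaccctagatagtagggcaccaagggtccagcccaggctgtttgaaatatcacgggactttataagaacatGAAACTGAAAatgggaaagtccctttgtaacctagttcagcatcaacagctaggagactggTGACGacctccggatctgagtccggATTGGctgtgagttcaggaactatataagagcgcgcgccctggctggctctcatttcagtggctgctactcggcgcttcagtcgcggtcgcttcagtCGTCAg

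The Psmb9 window overlaps that of Tap1 by 275 bases, and 225 bases separate the 2 RefSeq starts, so that the Tap1 sequence above is also most of the Psmb9 start region read from the other strand. It held 1 CCAAT box, 1 GC box and 1 CRE half-site. The H2-K1 and H2-D1 windows were 88.9% identical over 253 aligned bases and held the same 5 matches: the class I NF-kB site, the IRF core, the CRE half-site and a pair of CCAAT boxes. The class I NF-kB site occurred in 0.0304% of 32851 windows, the IRF core in 23.9%, the full response element (present in B2m) in 3.44%, the activated site (present in Psmb8) in 8.30%, the CCAAT box in 37.4%, the CRE half-site in 20.8% and the GC box in 35.7%. Psmb10 held none of the 7 motifs in this window. A match is a description of letters and not of binding.

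Levels were compared between genes as TPM, in which counts are divided by exon length and scaled to a common library sum. B2m was the most abundant of the set, with 11915 to 17184 TPM in KO and 9951 to 15821 TPM in WT, and ranked 5 to 6 in KO and 4 to 10 in WT among 10969 genes. H2-D1 followed with 3100.4 ± 452 TPM in KO and 3957 ± 560.0 TPM in WT, then H2-K1 with 1136 ± 186 and 1417 ± 203 TPM in the same order (SD, n = 4 each). The immunoproteasome genes came next in both genotypes. Psmb8 had 546 ± 50.8 TPM in KO and 694 ± 59.7 TPM in WT, Psmb10 349 ± 68.1 and 503 ± 35.96 TPM, and Psmb9 330.3 ± 22.5 and 424 ± 49.6 TPM, KO before WT. Then came Tapbp with 45.9 ± 10.1 TPM in KO and 68.1 ± 21.9 TPM in WT, Tap1 with 28.6 ± 6.33 and 57.6 ± 11.5 TPM, and Tap2 with 6.78 ± 1.23 and 12.6 ± 3.69 TPM. Nlrc5 was the least abundant, with 0.273 ± 0.0662 TPM in KO and 0.629 ± 0.244 TPM in WT. The order of means was the same in KO and WT, and the neighbours Psmb10 and Psmb9, and Tapbp and Tap1, overlapped between libraries in both genotypes, while the other neighbours did not overlap in either.

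**Figure D2:**
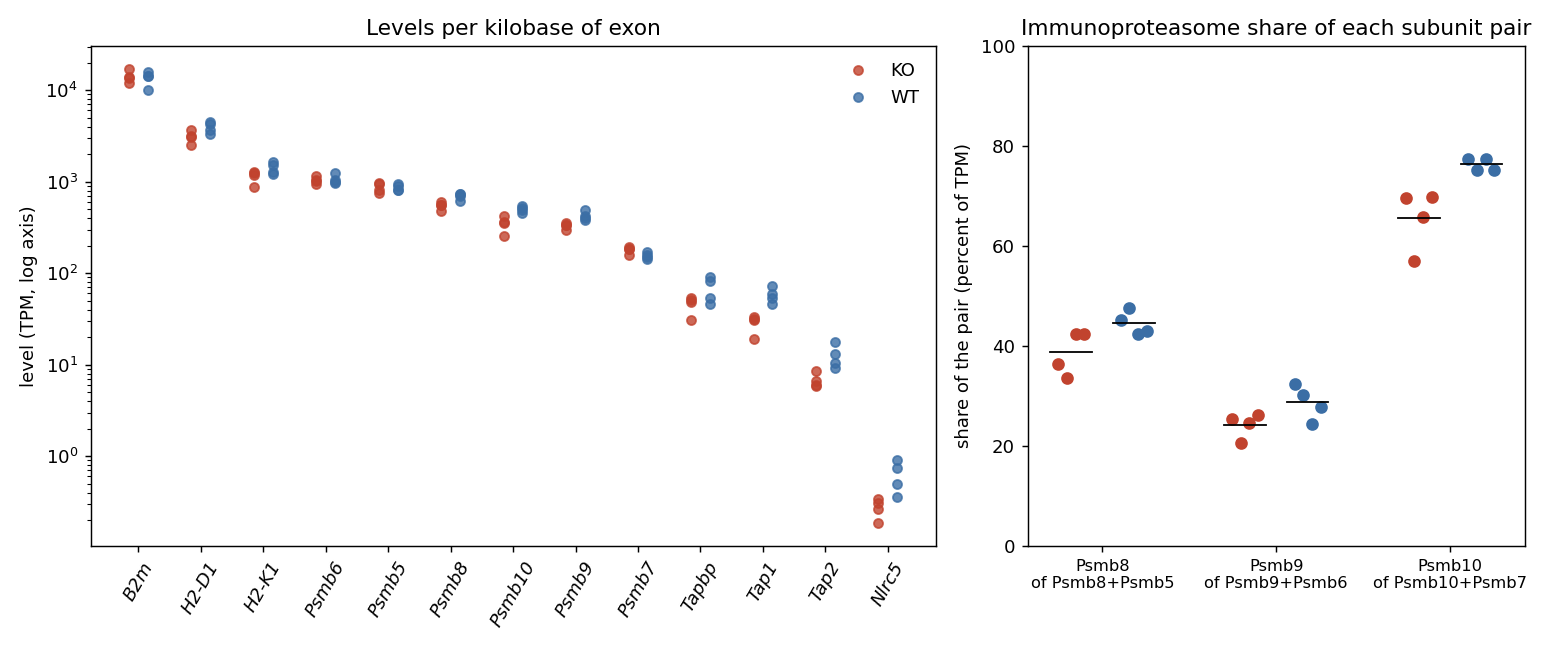
Left, level of each gene per library (TPM, log axis), KO in red and WT in blue, with the standard subunits Psmb5, Psmb6 and Psmb7 beside the 10 genes. Right, share of each immunoproteasome subunit in the sum with its standard counterpart (percent of TPM), a point per library and a line at the mean; Psmb10 made up 65.5% of its pair in KO and 76.3% in WT.

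The first comparison asked how the transcripts of this pathway differed between KO and WT monocytes. Tap1, the peptide pump subunit on which the set was picked, had 64.5, 42.0, 57.9 and 64.8 CPM in KO 1 to 4, against 133, 104, 111 and 91.4 CPM in WT 1 to 4. Every KO library lay below every WT library. The KO mean differed from the WT mean by -47.8%, and the log2 change was -0.94 ± 0.16 (SE). Tap1 was the only one of the 10 genes past an adjusted p of 0.05 in the edgeR test, where 1.06% of all 11222 tested genes passed in either direction and 0.838% were lower in KO. With the number series as covariate Tap2 passed as well (edgeR adjusted p = 0.0322, against 0.0569 without it). Fewer expressing cells and less transcript per cell cannot be told apart in these bulk libraries.

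Tap2, the other subunit of the pump, had 20.5, 14.9, 13.4 and 15.05 CPM in KO 1 to 4, against 37.2, 27.3, 25.7 and 21.5 CPM in WT 1 to 4. Its groups did not overlap either, and its log2 change was -0.81 ± 0.19 (SE). Within a library, Tap1 exceeded Tap2 by a similar factor in both genotypes: the TPM ratio was 4.25 ± 0.906 in KO and 4.65 ± 0.420 in WT (SD, n = 4 each), and the groups overlapped. Tapbp, which encodes tapasin, had 97.1, 66.6, 95.9 and 101.0 CPM in KO 1 to 4, against 146, 159, 109.7 and 89.4 CPM in WT 1 to 4. Only KO 2 lay below all WT libraries, and the log2 change was -0.48 ± 0.19 (SE).

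**Figure D3:**
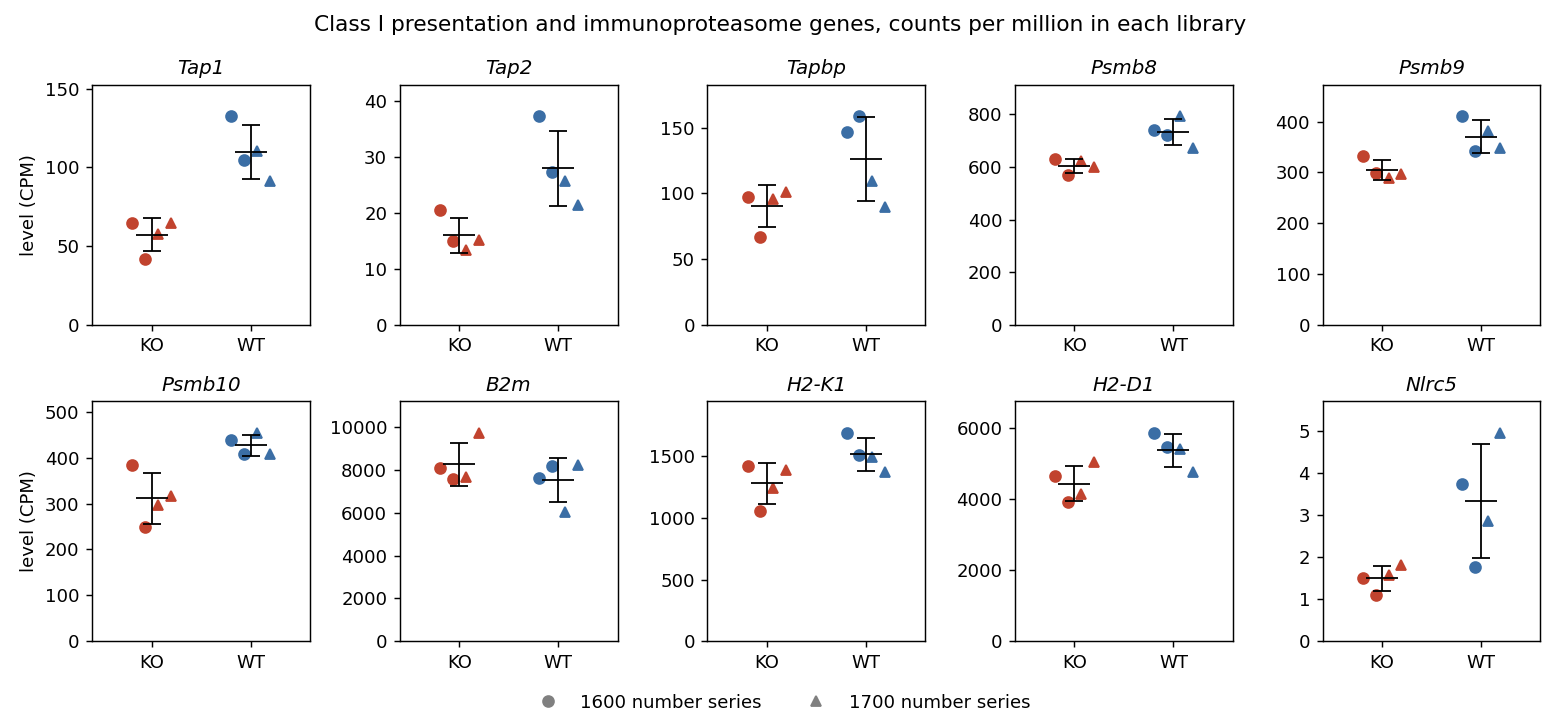
Level of each gene (CPM) in every library, KO left of WT, with circles for the 1600 and triangles for the 1700 number series and bars for mean and SD (n = 4 each). Tap1, Tap2, Psmb8, Psmb9 and Psmb10 show no overlap between KO and WT.

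The 3 immunoproteasome genes had smaller log2 changes than the pump. Psmb8, a chymotrypsin-like catalytic subunit, had 629.9, 569, 621 and 601 CPM in KO 1 to 4, against 741, 719.9, 793 and 673 CPM in WT 1 to 4. Psmb9, the subunit beside Tap1 in the genome, had 333, 299, 289 and 298 CPM in KO 1 to 4, against 411, 342, 381 and 348 CPM in WT 1 to 4. Psmb10, the trypsin-like counterpart of Psmb7, had 384, 248.5, 296 and 316 CPM in KO 1 to 4, against 438, 409, 454 and 408 CPM in WT 1 to 4. In each of the 3, every KO library lay below every WT library, with log2 changes of -0.27 ± 0.10, -0.28 ± 0.11 and -0.46 ± 0.13 (SE). Psmb9 and Psmb8 kept a TPM ratio of 0.607 ± 0.0355 in KO and 0.610 ± 0.0444 in WT (SD, n = 4 each). For Tap1 and Psmb9, which share a start region, the TPM ratio of Tap1 to Psmb9 was 0.0887, 0.0644, 0.0916 and 0.0996 in KO 1 to 4, against 0.148, 0.140, 0.133 and 0.120 in WT 1 to 4. Every KO ratio lay below every WT ratio. A ratio within a library does not depend on the scaling between libraries, but Tap1 picked the set, so that this ratio tests nothing. Differences between libraries by transcript length and GC content, and the 212 shared exon bases, were not corrected in it.

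The heavy chains of the class I molecule had log2 changes close to those of Psmb8 and Psmb9, with overlapping groups. Without offsets for length and GC content, the light chain did not lie lower in KO. H2-K1 had 1422, 1055, 1243 and 1388 CPM in KO 1 to 4, against 1688, 1504, 1488 and 1372 CPM in WT 1 to 4, and the groups overlapped through WT 4. H2-D1, the other classical heavy chain, had 4638, 3928, 4132 and 5032 CPM in KO 1 to 4, against 5865, 5454, 5409 and 4748 CPM in WT 1 to 4, and KO 4 lay above WT 4. Their log2 changes were -0.24 ± 0.12 and -0.28 ± 0.12 (SE), and their TPM ratio, H2-D1 over H2-K1, was 2.74 ± 0.177 in KO and 2.79 ± 0.0740 in WT (SD, n = 4 each). B2m, the light chain, had 8065, 7557, 7661 and 9732 CPM in KO 1 to 4, against 7643, 8188, 6042 and 8247 CPM in WT 1 to 4. It was the only one of the 10 with a positive log2 change, 0.13 ± 0.13 (SE). With offsets for length and GC content B2m was negative (-0.17 ± 0.15), close to H2-K1 (-0.12 ± 0.12) and H2-D1 (-0.17 ± 0.11). The TPM ratio of B2m to both heavy chains was 3.34 ± 0.213 in KO and 2.54 ± 0.470 in WT, where WT 4 (3.11) lay above KO 1 (3.06). Differences between libraries by transcript length and GC content were not corrected in this ratio.

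Nlrc5, the transactivator, was close to the limit of these libraries, with 25, 18, 34 and 39 reads in KO 1 to 4, against 73, 36, 53 and 80 reads in WT 1 to 4. That was 1.5, 1.11, 1.59 and 1.81 CPM in KO, against 3.75, 1.77, 2.86 and 4.96 CPM in WT. WT 2 lay inside the KO range, and the log2 change of -1.13 ± 0.32 (SE) had the widest error of the set. In all, 9 of the 10 genes had a negative log2 change and the median over the 10 was -0.37, against 50.4% negative and a median of -0.0038 over all tested genes. In 5 of the 10 every KO library lay below every WT library, which held for 6.06% of all tested genes, and in none was every KO library above every WT library (5.35% of all tested genes). DESeq2 called 4 of the 10 lower (4.09% of all tested genes) and 0 higher (2.9%). The genes were chosen on this contrast, so that these counts describe the set and test nothing.

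**Figure D4:**
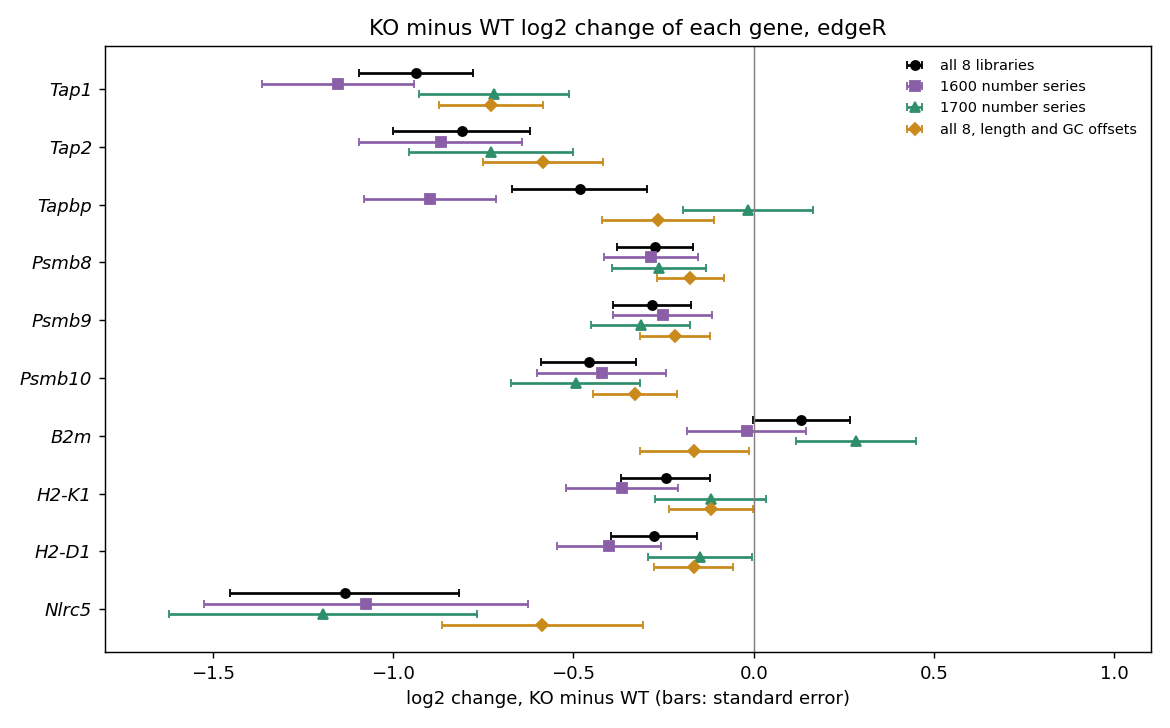
Log2 change, KO minus WT, of each gene with its standard error, in all 8 libraries, within each number series and with offsets for transcript length and GC content. Tapbp was at -0.90 in the 1600 series and -0.02 in the 1700 series; Tap1 lay between -1.15 and -0.72 in all 4 fits.

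The Tap1 call was lost with limma-voom (adjusted p = 0.0857) and with a filter at a mean of 5 CPM (edgeR adjusted p = 0.0714). Leaving out 1 library at a time kept the log2 change of Tap1 between -1.02 and -0.81, while the edgeR adjusted p was 0.0892 without KO 2, 0.0903 without KO 3, 0.0872 without WT 1, 0.142 without WT 3 and 0.0658 without WT 4, and at most 0.0331 without KO 1, KO 4 or WT 2. Transcripts in the top 10% for GC content, measured against their own mean, were at -0.317 to 0.0945 in KO and 0.0853 to 0.292 in WT on the log2 scale, and the longest 10% at -0.248 to -0.0823 in KO and -0.0748 to 0.340 in WT. Of the 10 genes, 8 had a GC content between the 80.4th and the 89.2nd percentile of tested genes, Nlrc5 was at the 66.9th and B2m at the 9.2nd. With per-library offsets for length and GC content the log2 changes were -0.73 ± 0.14 for Tap1, -0.58 ± 0.17 for Tap2, -0.59 ± 0.28 for Nlrc5, -0.33 ± 0.12 for Psmb10 and -0.27 ± 0.15 for Tapbp, and between -0.22 and -0.12 for the remaining 5 genes (SE). The edgeR adjusted p of Tap1 was then 0.0812.

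The second comparison asked whether the genotype difference of these genes depended on the number series. The estimate of this interaction does not use the genotype difference that picked the set. The p-value that picked Tap1 also needed a small spread within genotypes, which differences between the number series widen. The values of Tap1 by number series, here and in the next paragraph, are therefore a description. None of the 10 passed an adjusted p of 0.05 in edgeR (0.784% of all tested genes did) or in DESeq2, and 1 of the 10, Tapbp, had an unadjusted p under 0.05 in edgeR, as did 16.1% of all tested genes. DESeq2 gave an adjusted p of 0.0528 for the interaction of Tapbp and none for that of Nlrc5. For Tapbp the KO minus WT change was -0.90 ± 0.18 within the 1600 series and -0.02 ± 0.18 within the 1700 series (SE), and the interaction, 1700 minus 1600, was 0.88 ± 0.26 (SE, edgeR adjusted p = 0.122). With single libraries left out it lay between 0.64 and 1.18 and stayed positive each time, and with no filter on low counts its edgeR adjusted p was 0.0048. Tap1 was at -1.15 ± 0.21 in the 1600 series and -0.72 ± 0.21 in the 1700 series, an interaction of 0.43 ± 0.29 (edgeR adjusted p = 0.509) that was 0.16 without KO 2 and 0.78 without KO 1. H2-K1 was at -0.37 ± 0.15 and -0.12 ± 0.15 and H2-D1 at -0.40 ± 0.14 and -0.15 ± 0.14 in the 1600 and 1700 series, with interactions of 0.25 ± 0.22 and 0.25 ± 0.20 (edgeR adjusted p = 0.624 and 0.586). Tap2, Psmb8, Psmb9, Psmb10 and Nlrc5 had interactions between -0.12 and 0.14 (SE 0.18 to 0.63), and B2m had 0.30 ± 0.23. With 1 library left out, the interaction of H2-K1 ran from 0.05 (without KO 2) to 0.48 (without KO 1), that of B2m from 0.10 (without WT 3) to 0.55 (without WT 4) and that of Nlrc5 from -0.76 (without WT 1) to 0.33 (without WT 2). Each series held 2 libraries of a genotype, and a p that misses the threshold does not show that the genotype differences were alike.

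Averaged over genotypes, the 1700 series did not differ from the 1600 series past the threshold for any of the 10 genes in edgeR (0.0178% of all tested genes passed) or DESeq2, and 1 of the 10 had an unadjusted p under 0.05 (6.78% of all tested genes). This was Tap2, at -0.38 ± 0.16 in the 1700 against the 1600 series (SE, edgeR adjusted p = 0.704). For Tap1 the difference was -0.01 ± 0.15, between -0.15 (without KO 2) and 0.16 (without KO 1) with 1 library left out. For Nlrc5 it was 0.44 ± 0.31, between 0.22 (without WT 2) and 0.76 (without WT 1).

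Other genes of the pathway were taken from lists of 109 genes in all, of which 103 passed the filter, and none of these 103 passed the edgeR threshold in KO against WT. At an unadjusted p under 0.05, 20 were higher and 11 lower in KO, and DESeq2 called 7 higher and 6 lower. Of all tested genes, 20.9% had an unadjusted p under 0.05 (8.93% higher and 12% lower), and DESeq2 called 2.9% higher and 4.09% lower. The standard catalytic subunits, which the immunoproteasome subunits replace, had positive log2 changes over all 8 libraries, but Psmb5 and Psmb6 differed in sign between the number series. Psmb5, the counterpart of Psmb8, had 607, 622, 464.5 and 449.5 CPM in KO 1 to 4, against 495, 438, 593 and 494 CPM in WT 1 to 4. Psmb6, the counterpart of Psmb9, had 578, 680.1, 526 and 493 CPM in KO 1 to 4, against 507, 465, 695.5 and 533 CPM in WT 1 to 4. Both KO libraries lay above both WT libraries in the 1600 series and below them in the 1700 series, with interactions of -0.65 for Psmb5 and -0.64 for Psmb6 (edgeR adjusted p = 0.126 and 0.172). Psmb7, the counterpart of Psmb10, had 149, 166, 136 and 121 CPM in KO 1 to 4, against 114, 119, 117 and 119 CPM in WT 1 to 4, with no overlap, at 0.29 ± 0.12 on the log2 scale (SE, edgeR adjusted p = 0.191). The share of Psmb10 in the pair was therefore 69.6%, 56.9%, 65.9% and 69.8% in KO 1 to 4, against 77.3%, 75.2%, 77.5% and 75.2% in WT 1 to 4. The share of Psmb8 was 38.7% ± 4.46 in KO and 44.6% ± 2.35 in WT (SD, n = 4 each), where KO 3 and KO 4 lay level with WT 3 at 42.5%. The share of Psmb9 was 24.2% ± 2.50 in KO and 28.7% ± 3.41 in WT and overlapped.

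Over all 8 libraries, the remaining proteasome genes were mostly at or above WT levels. All 11 tested genes of the other 20S core subunits had a positive log2 change (median 0.12), and 3 were higher at an unadjusted p under 0.05, as were 8.93% of all tested genes. With the length and GC offsets 4 of the 11 were negative and the median was 0.03, while RLE size factors left none negative. Among them Psma1 averaged 909.7 ± 85.2 CPM in KO and 711 ± 28.1 CPM in WT and Psma4 554 ± 34.5 and 439.5 ± 31.8 CPM, KO before WT (SD, n = 4 each; edgeR adjusted p = 0.101 and 0.114). Of the 18 genes of the 19S regulatory particle, which unfolds substrates, 15 were positive (median 0.27), 10 had an unadjusted p under 0.05 in that direction (8.93% of all tested genes) and 0 in the other (12%), and DESeq2 called 4 higher (2.9%). Psmd11 had a log2 change of 0.53 ± 0.15 and Psmc6 of 0.41 ± 0.12 (SE; edgeR adjusted p = 0.0795 and 0.0861). The median was 0.17 with the length and GC offsets, where 16 of 18 were positive. The median interaction of the 18 was 0.02. Of the 4 activators, Psme1, a subunit of the interferon-induced PA28 cap, averaged 257 ± 21.5 CPM in KO and 305 ± 12.8 CPM in WT, and Psme4 (PA200) 4.61 ± 0.293 and 7.59 ± 1.89 CPM (SD, n = 4 each; edgeR adjusted p = 0.210 and 0.0958), with no overlap in either. Their list had a median of -0.14, with 2 of 4 lower at an unadjusted p under 0.05 (12% of all tested genes). The 8 assembly genes had a median of 0.16, with 2 higher and 1 lower at an unadjusted p under 0.05 (8.93% and 12% of all tested genes). Their median interaction was -0.41. Psmd10 was at 0.27 ± 0.11 and Psmg4 at -0.44 ± 0.19 (SE; edgeR adjusted p = 0.195 and 0.205).

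**Figure D5:**
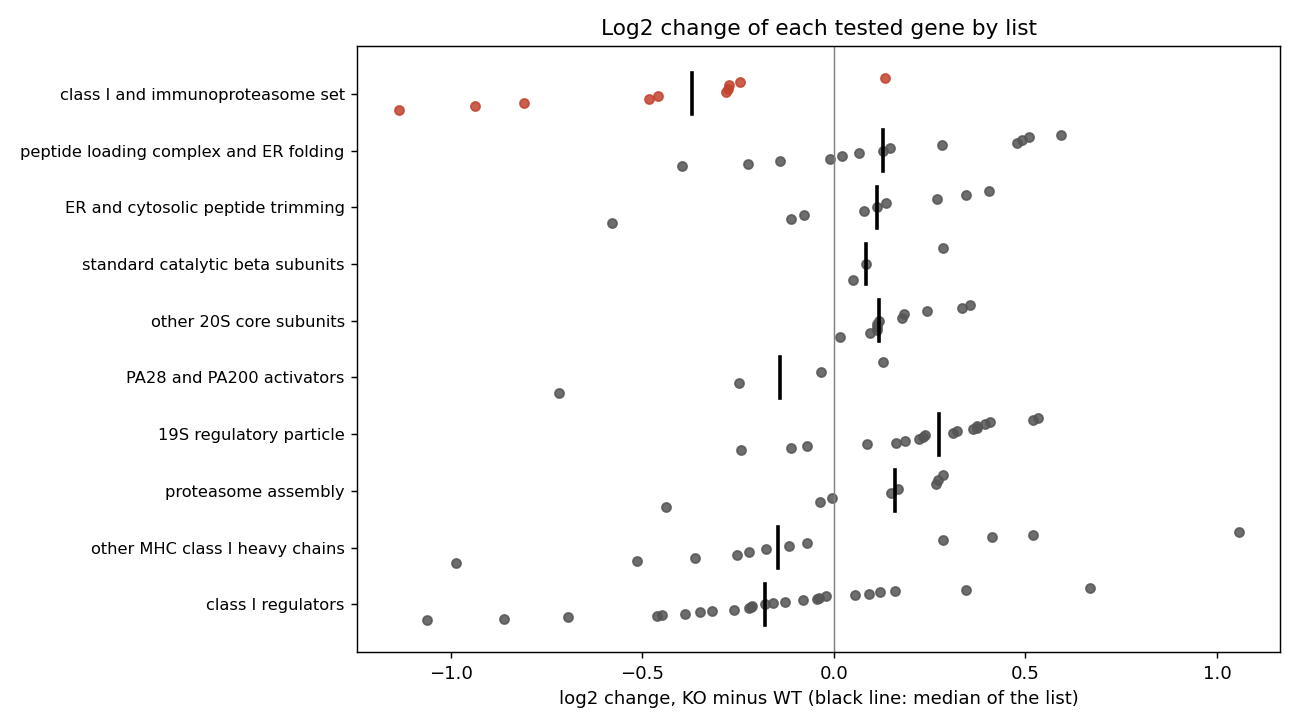
Log2 change, KO minus WT, of each tested gene by list, with a black line at the median of the list. The median was -0.37 for the 10 class I and immunoproteasome genes and 0.27 for the 19S regulatory particle.

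The list for peptide loading and folding in the endoplasmic reticulum held 13 genes, the translocon subunits Sec61a1, Sec61b and Sec61g among them. Of these 13 genes, 9 had a positive log2 change and 4 a negative one (median 0.13). At an unadjusted p under 0.05, 2 were higher and 1 lower (8.93% and 12% of all tested genes), and DESeq2 called 1, Pdia3, higher. The lower one was Tapbpl, the tapasin-related protein, named after its values were seen, at -0.40 ± 0.18 on the log2 scale (SE, edgeR adjusted p = 0.218). Pdia3, the disulfide enzyme bound to tapasin, had 424.5, 495, 474 and 476 CPM in KO 1 to 4, against 385, 371, 247 and 341 CPM in WT 1 to 4, with no overlap, at 0.48 ± 0.14 on the log2 scale (SE, edgeR adjusted p = 0.0919). Calr, the chaperone that holds the empty heavy chain, had 237, 236, 276 and 252 CPM in KO 1 to 4, against 205, 224, 120.2 and 162 CPM in WT 1 to 4, with no overlap (edgeR adjusted p = 0.130). Sec61b, a translocon subunit named after its values were seen, was the 1 gene of these 103 whose interaction with the number series passed the threshold, at -1.12 ± 0.20 (SE, edgeR adjusted p = 0.0369), where 0.784% of all tested genes passed. Psmg4 was at -1.01 and Calr at 0.76 (edgeR adjusted p = 0.0766 and 0.116). Of the 9 peptidases, 6 were positive (median 0.11) and 1 was lower at an unadjusted p under 0.05 (12% of all tested genes). That gene was Lnpep, an aminopeptidase of endosomes, with 17.1 ± 1.40 CPM in KO and 25.5 ± 3.46 CPM in WT (SD, n = 4 each; edgeR adjusted p = 0.0686). Erap1, the trimming peptidase of the endoplasmic reticulum, averaged 30.9 ± 0.988 CPM in KO and 23.4 ± 7.55 CPM in WT (edgeR adjusted p = 0.294), with no overlap.

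Among the other class I heavy chains, 12 of 17 genes were tested, 8 of them negative with a median of -0.15, and 1 was higher and 3 lower at an unadjusted p under 0.05 (8.93% and 12% of all tested genes). H2-Q7, a non-classical heavy chain, averaged 2.81 ± 0.838 CPM in KO and 5.61 ± 1.11 CPM in WT, and Fcgrt, the class I-like Fc receptor, 63.3 ± 8.06 and 90.4 ± 12.7 CPM (SD, n = 4 each; edgeR adjusted p = 0.0692 and 0.0786). The far more abundant H2-D1 (4433 CPM in KO and 5369 CPM in WT) shared 5.99% of its stretches of 50 bases with H2-Q7. Whether H2-D1 reads were counted for H2-Q7 was not tested. Of the 25 tested regulators, 19 were negative with a median of -0.18, and 3 were lower and 1 higher at an unadjusted p under 0.05 (12% and 8.93% of all tested genes). Relb, a subunit of NF-kB, averaged 14.8 ± 3.85 CPM in KO and 26.9 ± 5.39 CPM in WT, and Stat2, which carries type I interferon signals, 3.12 ± 1.05 CPM in KO and 6.59 ± 1.39 CPM in WT (SD, n = 4 each). Neither overlapped between genotypes (edgeR adjusted p = 0.0569 and 0.0611), and DESeq2 called both lower. Of all tested genes, DESeq2 called 4.09% lower and 6.99% in either direction.

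Tap1 was also compared with every other tested gene across the 8 libraries, as a description. With the genotype means removed, Abi3 was closest (Pearson r = 0.987, Spearman rho = 0.976) and H2-K1 was rank 2 of 11221 genes (r = 0.976, rho = 0.833). Gucy2c, Snx15, Aebp2 and Gm15753 followed with r between 0.957 and 0.969. Among the other members r was 0.878 for H2-D1, 0.775 for Psmb10, 0.771 for Tapbp, 0.673 for Psmb8, 0.638 for Tap2, 0.595 for Psmb9, 0.240 for Nlrc5 and 0.166 for B2m. Without KO 2 and WT 4, the libraries in which Tap1 deviated most, r was 0.917 for H2-K1, 0.706 for H2-D1, 0.706 for Tap2, 0.767 for Psmb9, 0.462 for Psmb10, 0.102 for Tapbp, -0.0740 for Psmb8, 0.802 for Nlrc5 and 0.291 for B2m. The values of Tapbp, Psmb8, Psmb10 and Nlrc5 therefore depend on those libraries. Without removal of the genotype means, which brings in the contrast that picked Tap1, the closest were Pdlim4, Hexim1, Pgap6, Cox18, Ltb and Aebp2 (r between 0.973 and 0.986).

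Marker sums of other cells differed with genotype or number series in some lists, and their part in the values above was not tested. The 12 neutrophil markers summed to 629.5 to 3704 CPM in KO and 292 to 618 CPM in WT, with Ly6g at 0.140 to 1.08 CPM in KO and 0 to 0.124 CPM in WT. The 8 plasmacytoid dendritic cell markers summed to 97.2 to 145 CPM in KO and 189 to 229 CPM in WT. Their defining genes Siglech and Klk1 were at 0 counts in all 8 libraries, Ccr9 had 0 to 15 counts in KO and 3 to 7 in WT, and the gene of that list that fell was Bst2, which is also induced by interferon (log2 change -0.71 ± 0.14, SE, edgeR adjusted p = 0.0377). The 10 conventional dendritic cell markers, MHC class II genes among them, summed to 1957 and 1269 CPM in KO 1 and KO 2 and to 5188 and 5942 CPM in KO 3 and KO 4, against 5497 to 7229.5 CPM in WT, with Xcr1 at 0 to 2 counts in KO and 0 to 3 counts in WT. The 9 nonclassical monocyte markers summed to 185 to 263 CPM in KO and 283 to 358 CPM in WT. Their defining genes overlapped, with Ace at 3.46 to 6.53 CPM in KO and 5.89 to 9.99 CPM in WT. Treml4 was at 102 to 146 CPM in KO and 102 to 174 CPM in WT. All 9 had a negative log2 change (50.4% of all tested genes), and DESeq2 called 3 lower (4.09%). Among these, Pou2f2 was at 0.0615 to 0.240 CPM in KO and 1.08 to 2.43 CPM in WT (edgeR adjusted p = 0.017). The 10 classical monocyte markers summed to 139614 to 180265 CPM in KO and 116738 to 134986 CPM in WT. Single genes went both ways, with log2 changes from -1.11 to 1.40 (median 0.16). DESeq2 called 1 higher and 1 lower (2.9% and 4.09% of all tested genes), and the defining genes Ly6c2 and Ccr2 overlapped between genotypes. Progenitor markers summed to 157 and 239 CPM in KO 1 and KO 2, to 38.6 and 25.2 CPM in KO 3 and KO 4 and to 31.8 to 46.0 CPM in WT. Sums for B cells, T cells, NK cells, red pulp macrophages, erythroid cells, and basophils with eosinophils overlapped between KO and WT. Single genes of these lists did not: Nkg7 of the NK cell list rose, at 1.07 to 2.83 CPM in KO and 0.360 to 0.496 CPM in WT (edgeR adjusted p = 0.0433), while Ncr1 was at 0 in all 8 libraries. Vcam1 of the macrophage list had 2.04 to 2.99 CPM in KO and 1.12 to 1.67 CPM in WT (edgeR adjusted p = 0.0983), and DESeq2 called it higher. Without KO 1 and KO 2 the log2 changes were -0.83 ± 0.17 for Tap1, -0.96 ± 0.23 for Tap2, -0.47 ± 0.13 for Psmb10 and -0.35 ± 0.22 for Tapbp (SE). Their edgeR adjusted p was then 0.0996, 0.111, 0.144 and 0.454, in this order, none past 0.05.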

How the data were processed

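Per the labels' protocols, cDNA was made from sorted cells with SMART-Seq v4. The authors deposited raw counts per gene for 8 libraries. The submitters' processing notes name HISAT2 2.0.5, featureCounts 1.5.0-p3 and GRCm38. The release of the annotation, the strandedness and any filter were not given in the sources used here. PCR reads carry no molecular identifiers, so that limits from counts cover counting error only.

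The quasi-likelihood test of edgeR 4.0.16 was run on these counts in R 4.3.3 after filterByExpr and TMM scaling, with Benjamini-Hochberg adjustment over 11222 genes that hold 99.9% of counts. The tests were first run on simulated data. CPM were computed with TMM library sizes, and TPM with exon lengths of GENCODE M21. Alternatives used DESeq2 1.42.0, limma 3.58.1 (voom) and offsets for length and GC content (mgcv 1.9.3). Libraries were grouped by labelled genotype. The genes and lists were chosen with earlier results of these data known. Beyond the 10 genes, each pathway list names the genes past 0.05, or else up to 2 with the smallest unadjusted p, and 6 genes most like Tap1 by each measure. Each library counted as 1 replicate. Libraries of the same genotype differed beyond sampling noise (chi-square per degree of freedom 16.5 to 77.2), which does not show that they are separate animals. KO pairs within a number series were at 24.4 (KO 1 and KO 2) and 16.5 (KO 3 and KO 4), against 47.3 to 77.2 across series. In WT the pairs within a series were at 29.3 and 39.9, against 28.3 to 55.8 across series. The main test did not model the number series.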

Additional observations from a re-analysis of the deposited data

Results flagged for a closer look

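Tapbp had 66.6 CPM in KO 2, apart from the other KO libraries at 95.9 to 101.0 CPM. The gap took up a share of 0.85 of the range of the 4 libraries, above Dixon's critical value at 95% for 4 values. Of the 40 groups checked in this way 1 stood out, and chance gives about 2.

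The genotype difference of Sec61b, a subunit of the channel through which new chains enter the endoplasmic reticulum, differed between the number series (interaction, 1700 minus 1600, -1.12 ± 0.20 SE, edgeR adjusted p = 0.0369). Its KO minus WT log2 change was 0.33 in the 1600 series and -0.79 in the 1700 series. In the 1600 series it had 582 and 519 CPM in KO, against 446 and 433 CPM in WT, and in the 1700 series 371 and 349.9 CPM in KO, against 692 and 558 CPM in WT.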

How the results depend on the processing

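KO minus WT calls over all genes, 119 here, were 742 with no filter, 0 with a mean of at least 5 CPM (1410 at an unadjusted p under 0.05), 784 with DESeq2, 244 with the replicate block, 251 with the number series as covariate, 0 with limma-voom (2371 unadjusted), 1 with offsets for length and GC content, 7 when KO 1 and KO 2 were both left out, and 0 to 515 with 1 library left out. Interaction calls, 88 here, were 645 with no filter, 431 with DESeq2 and 3 to 628 with 1 library left out. Calls between number series, 2 here, were 1 with RLE size factors, 186 with no filter, 72 with DESeq2 and 0 to 17 with 1 library left out. A lone library in an arm was then assumed to vary like the others. The causes were not tested.

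Tap1 stayed negative in all 19 alternatives (log2 change -1.16 to -0.72), and its adjusted p passed 0.05 in 8 of them, with a range of 6.56e-07 to 0.142. DESeq2 called 4 of the 10 genes lower (Tap1, Tap2, Psmb10 and Nlrc5) and limma-voom 0. B2m was the only one of the 10 whose sign turned, in 2 of 19 alternatives. The equal replicate numbers were not taken as pairs, since same-numbered libraries did not deviate together (correlations -0.049 to 0.093); with the block, edgeR adjusted p was 0.0173 for Tap1 and 0.0334 for Tap2, which passed only there, with the number series as covariate, with no filter and with DESeq2. Nlrc5, at 18 to 39 reads in KO and 36 to 80 in WT, is limited by depth.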
